A study of Mus musculus with 8 samples.

Results

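Foxp3 and the 5 genes of the Ikaros family, Ikzf1 to Ikzf5, were examined in resting and activated regulatory T (Treg) cells with and without Foxp1. The genes were taken from the deposited count table by symbol, which gave 6 of its 27594 genes, and all 6 were among the 14540 genes that passed the filter on low counts. The cells were sorted from the spleens and peripheral lymph nodes of C57BL/6 mice at 6 to 8 weeks of age. WT mice carried the Foxp3-YFP-Cre knock-in with intact Foxp1, and Foxp1-deficient mice carried it together with Foxp1fl/fl alleles (Foxp1 cKO in the labels). In each genotype, resting Treg (rTreg) cells were gated as CD4+YFP+CD44lowCD62Lhigh and activated Treg (aTreg) cells as CD4+YFP+CD44highCD62Llow, which makes 4 groups of 2 libraries. Cre and YFP come from the Foxp3 locus in all 4 groups, so Cre acts where Foxp3 has been transcribed, the sort itself requires Foxp3 transcription, and every Foxp3 value below is that of mice with the knock-in. The labels do not say whether a library is 1 mouse or a pool, so that p-values measure the spread between these samples.

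Foxp3 is the forkhead transcription factor that specifies the Treg lineage and keeps many effector genes silent. The Ikaros family are zinc finger factors of lymphocytes that bind DNA through their N-terminal fingers, pair with each other through their C-terminal fingers, and mostly repress by bringing in chromatin remodelling and deacetylase complexes such as NuRD. Its members are Ikaros (Ikzf1), the founding member, Helios (Ikzf2), which is abundant in Treg cells of thymic origin, Aiolos (Ikzf3), which is best known from B cell maturation, Eos (Ikzf4), which works as a corepressor of Foxp3, and Pegasus (Ikzf5), the most distant relative. Questions posed by the design are whether their transcripts differ between WT and Foxp1-deficient cells of the same subset, and between aTreg and rTreg cells of the same genotype.

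Between 6373170 and 15268623 counts fell on genes in each library. Levels are given as CPM, which are counts relative to the TMM-scaled library total, in the order replicate 1, replicate 2. The targeted gene, Foxp1, had 353 and 384 CPM in WT rTreg cells against 342 and 338 CPM after deletion, and 234 and 230 CPM in WT aTreg cells against 126 and 102 CPM after deletion. Counts over the whole gene thus separated the genotypes in aTreg cells (adjusted p = 0.00194, edgeR with Benjamini-Hochberg adjustment) but not in rTreg cells (adjusted p = 0.460, edgeR), where the genotype of these libraries rests on the label. The paper reports full deletion of Foxp1 in mice of this genotype, by immunoblot, RT-PCR and intracellular staining of Treg cells not split by subset. Replicate 1 and replicate 2 differ in sex, with at most 3 counts of Xist in every library of replicate 1 and at least 15098 in every library of replicate 2, and the comparisons were made within replicate numbers. The 6 T cell markers summed to 2432 to 3428 CPM, while 6 markers of CD8 T cells and NK cells summed to between 11.3 and 19.4 CPM. Over the markers that passed the filter, 4 of B cells summed to 8.29 to 10.8 CPM in rTreg and 33.2 to 38.7 CPM in aTreg libraries, and 2 of dendritic cells to 0.553 to 1.12 CPM and 4.17 to 9.34 CPM. In each genotype 3 of these 4 and both of these 2 passed as higher in aTreg cells, and their part in the comparisons between subsets was not tested. Of markers that moved between genotypes in rTreg cells, 5 of 6 T cell markers were higher in Foxp1-deficient cells. So were 3 of the 5 myeloid markers that could be tested, and the summed level of all 7 was 5.99 to 16.3 there against 0.786 to 1.93 CPM. Of the plasma cell and B cell markers tested, 2 of 5 and 1 of 4 were higher there. In aTreg cells 1 of 6 T cell, 1 of 5 myeloid and 1 of 5 plasma cell markers were higher in Foxp1-deficient cells. The 7 myeloid markers summed to 4.46 to 28.4 CPM in Foxp1-deficient and 4.23 to 5.38 CPM in WT aTreg libraries. The part of these markers in the results below was not tested.

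Foxp3 (ENSMUSG00000039521) lies on chromosome X from 7573644 to 7595245 on the plus strand in the GENCODE M21 annotation of GRCm38. Ikzf1 (ENSMUSG00000018654) spans 11685003 to 11772926 on the plus strand of chromosome 11, and Ikzf3 (ENSMUSG00000018168) spans 98464902 to 98546031 on the minus strand of the same chromosome. Also on minus strands are Ikzf2 (ENSMUSG00000025997) on chromosome 1 from 69531214 to 69687245, Ikzf4 (ENSMUSG00000002578) on chromosome 10 from 128630843 to 128645991, and Ikzf5 (ENSMUSG00000040167) on chromosome 7 from 131388652 to 131410521. Upstream sequence from RefSeq (GRCm38.p6) was matched for 3 of the 6 genes, Foxp3, Ikzf1 and Ikzf5. The 2 stretches before the annotated starts of Foxp3 are shown because a forkhead factor was removed from these cells. They are given 5′ to 3′ on the plus strand, and capitals mark the forkhead core TGTTTA or its reverse complement TAAACA.

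Foxp3, start 1, chrX:7579426-7579566: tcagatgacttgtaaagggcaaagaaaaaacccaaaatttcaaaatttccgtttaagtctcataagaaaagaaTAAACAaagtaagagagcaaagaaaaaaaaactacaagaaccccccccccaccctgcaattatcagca
Foxp3, start 2, chrX:7580233-7580482: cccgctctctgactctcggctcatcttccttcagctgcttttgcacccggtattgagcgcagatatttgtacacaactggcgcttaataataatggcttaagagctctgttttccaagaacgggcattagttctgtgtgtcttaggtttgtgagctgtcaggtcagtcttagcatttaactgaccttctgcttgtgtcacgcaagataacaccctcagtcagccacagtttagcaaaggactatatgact
Both stretches lie within the annotated span of Foxp3, and the 109 bases of the first window that overlap an annotated exon were left out. In the 250 bases before start 1 the core was found at 1 place, beginning 177 bases before the start, and in the 250 bases before start 2 it was not found. Of 32851 upstream windows of that length in the RefSeq table, 12.0% hold the core on either strand. The Ikaros core GGGAA or its reverse complement TTCCC, which 56.2% of those windows hold, was in neither Foxp3 window, in 1 of the 2 Ikzf1 windows and in the Ikzf5 window. These matches describe the letters and do not show binding.

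Levels were first ordered within each group on the per-length scale, the FPKM values that the authors deposited. In WT rTreg cells the order was Foxp3 at 141 ± 23.7 FPKM (SD, n = 2, as for every mean below), Ikzf1 at 121 ± 0.855, Ikzf3 at 51.3 ± 2.74, Ikzf4 at 44.1 ± 4.25 and Ikzf2 at 40.3 ± 0.147, and the libraries of neighbours in this order did not overlap. On this scale Helios was the lowest of the well expressed members. In WT aTreg cells Foxp3 stood at 137 ± 0.388 FPKM, followed by Ikzf2 at 97.9 ± 12.8, Ikzf1 at 82.6 ± 16.7 and Ikzf4 at 60.3 ± 16.5, whose libraries overlapped from neighbour to neighbour, and by Ikzf3 at 36.7 ± 0.154. Among Foxp1-deficient rTreg cells, Foxp3 at 111 ± 7.02 FPKM and Ikzf1 at 108 ± 4.23 overlapped, as did Ikzf4 with Ikzf3 and Ikzf3 with Ikzf2, which ranged together from 27.9 to 35.1 FPKM. The order in Foxp1-deficient aTreg cells was without overlap, with Foxp3 at 137 ± 11.7, Ikzf2 at 111 ± 0.694, Ikzf1 at 64.7 ± 0.205, Ikzf4 at 56.1 ± 0.802 and Ikzf3 at 25.05 ± 6.47 FPKM. Foxp3 ranked between 226 and 421 of the 14540 genes tested by FPKM over the 8 libraries, and Ikzf2 between 385 and 2237. The length behind the FPKM values was 3580 bases for Ikzf4 against 5995 bases of merged exons in GENCODE M21, and 3989 against 4577 for Foxp3, so that the places of both genes depend on the length used. With the lengths of GENCODE M21, a choice made after seeing the data, Foxp3 at 108 to 137 FPKM overlapped Ikzf1 in WT rTreg cells, lay below it at 92.3 to 101 FPKM in Foxp1-deficient rTreg cells, and stayed first in both aTreg groups. Ikzf4 then had the lowest mean of the members other than Ikzf5 in every group except Foxp1-deficient aTreg cells, where Ikzf3 was lower. Of the 4577 exon bases of Foxp3, 853 are shared with Flicr on the same strand. On the opposite strand 590 are shared with Ccdc22, 373 with Gm36995 and 266 with Ppp1r3f. How reads on shared bases were counted is not given in the sources used here, and their part in the Foxp3 values was not tested.

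Ikzf5 was near the bottom of every group, between 0.332 and 0.592 FPKM. It had 21 to 39 counts in a library, which is 1.84 to 3.35 CPM. Of the 5721 exon bases of Ikzf5, 4652 are shared with Pstk on the opposite strand, and the strand setting of the counting is not given in the sources used here, so reads of the 2 genes may not have been told apart. No comparison of Ikzf5 passed the test, and its 95% confidence intervals reached from -1.24 to 0.90 on the log2 scale over the 4 comparisons of groups, so changes of up to about that size were not detectable at these counts.

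**Figure D1:**
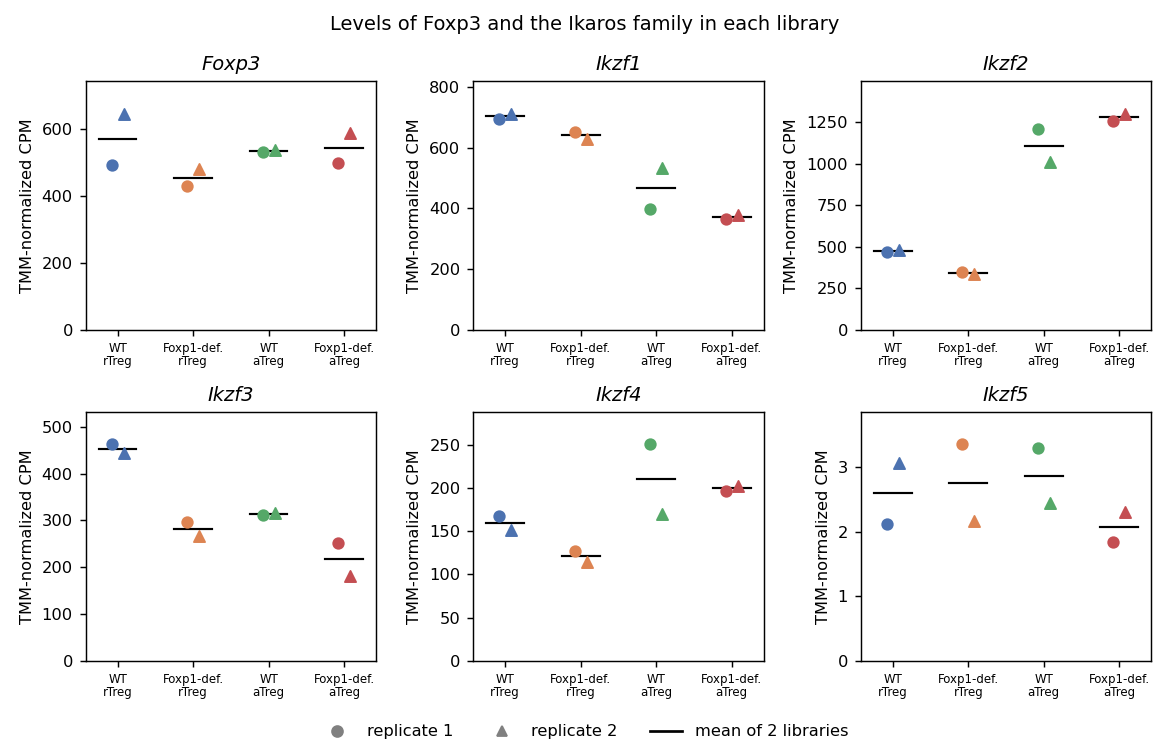
TMM-normalized CPM of each gene (vertical axes from 0, with a scale of their own for each gene) in the 4 groups, with circles for replicate 1, triangles for replicate 2 and a line at the mean of the 2 libraries. Ikzf2 lies between 337 and 480 CPM in the 4 rTreg libraries and between 1010 and 1302 CPM in the 4 aTreg libraries, while Foxp3 lies between 429 and 646 CPM in all 8.

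In rTreg cells, 3 of the 6 genes fell in Foxp1-deficient cells, namely Ikzf3, Ikzf2 and Foxp3, and none rose (adjusted p under 0.05, edgeR's quasi-likelihood test with the replicate number as a block and Benjamini-Hochberg adjustment over all genes tested). Over all genes tested, 12.0% passed, 6.57% as higher and 5.45% as lower. The median log2 fold change was -0.36 over the 6 genes and 0.0029 over all genes. The fall of Ikzf3 passed the further threshold of 1.5-fold that the study uses, as did 5.60% of all genes, 2.90% as higher and 2.70% as lower.

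Aiolos (Ikzf3) had 463 and 443 CPM in WT and 296 and 268 CPM in Foxp1-deficient rTreg cells. Both Foxp1-deficient libraries were lower than both WT libraries, although in bulk libraries fewer cells with a transcript and less RNA per cell cannot be told apart. Here the log2 fold change was -0.69 (SE 0.11, adjusted p = 0.00825, edgeR), with -0.64 and -0.73 in the replicate pairs. Helios (Ikzf2) had 466 and 480 CPM in WT and 348 and 337 CPM in Foxp1-deficient rTreg cells, again without overlap. Its log2 fold change was -0.47 (SE 0.078, adjusted p = 0.0106, edgeR), and the pairs gave -0.42 and -0.51. Without the replicate block neither call was kept, at adjusted p-values of 0.0707 for Ikzf3 and 0.0695 for Ikzf2 (edgeR), although the estimates stayed at -0.69 and -0.47. Both calls were also lost without the second WT rTreg library or without either Foxp1-deficient rTreg library, at adjusted p-values of 0.0696 to 0.0947 for Ikzf3 and 0.0702 to 0.110 for Ikzf2 (edgeR).

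Foxp3 itself had 492 and 646 CPM in WT rTreg cells and 429 and 480 CPM in Foxp1-deficient rTreg cells. The groups did not overlap, but the gap between 480 and 492 CPM was smaller than the distance between the WT libraries. With the replicate number as a block the log2 fold change was -0.32 (SE 0.084, 95% confidence interval -0.51 to -0.12), and the adjusted p of 0.0496 (edgeR) lay just under the threshold. The fall was -0.20 in the pair of replicate 1 and -0.43 in that of replicate 2. The call was lost in 11 of the 18 alternatives tried, among them the fit without the replicate block (adjusted p = 0.324, edgeR) and the fit without the second WT rTreg library, where the log2 fold change was -0.20 (adjusted p = 0.297, edgeR). It was lost as well without the first or second Foxp1-deficient library of either subset, at adjusted p-values of 0.156 and 0.288 for rTreg and 0.0719 and 0.0733 for aTreg libraries (edgeR). Foxp3 is X-linked and was higher in replicate 2, the replicate with Xist, than in replicate 1 in each of the 4 groups; sex and replicate number cannot be told apart here.

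Eos (Ikzf4) had 167 and 151 CPM in WT and 128 and 114 CPM in Foxp1-deficient rTreg cells, so the groups did not overlap, and the pairs gave log2 differences of -0.39 and -0.40. Its fitted value of -0.40 (SE 0.12) did not pass the test, with an adjusted p of 0.0815 (edgeR), and passed in 5 of the 18 alternatives, among them the fits without either WT aTreg library (adjusted p = 0.0153 and 0.0154, edgeR). Ikaros (Ikzf1) had 696 and 712 CPM against 651 and 630 CPM. That difference of -0.14 (SE 0.10) was not distinguishable from 0 (adjusted p = 0.436, edgeR; 95% confidence interval -0.38 to 0.10). Ikzf5 had 2.12 and 3.06 CPM in WT and 3.35 and 2.17 CPM in Foxp1-deficient rTreg cells, with overlap.

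In aTreg cells, Ikzf3 was the only one of the 6 genes that passed, and it was again lower in Foxp1-deficient cells. Of all genes tested, 6.88% passed, 4.11% as higher and 2.77% as lower, and 4.03% also passed 1.5-fold (2.37% as higher and 1.66% as lower), which none of the 6 did. The median log2 fold change of the 6 genes was -0.19, against 0.0018 over all genes. The Ikzf3 level was 311 and 315 CPM in WT aTreg cells, which is close together, and 252 and 182 CPM in Foxp1-deficient aTreg cells, which is not. The log2 fold change was -0.54 (SE 0.11, adjusted p = 0.0269, edgeR), made up of -0.31 in the first pair and -0.79 in the second. The call was lost in 9 of the 18 alternatives, including the fit without the replicate block (adjusted p = 0.203, edgeR) and the fit of the 4 aTreg libraries alone (adjusted p = 0.0786, edgeR). It was also lost without the second Foxp1-deficient aTreg library, at -0.35 (adjusted p = 0.128, edgeR), and without the second WT aTreg library, at -0.42 (adjusted p = 0.161, edgeR), and without the first or second Foxp1-deficient rTreg library, which only enter the shared spread, at adjusted p-values of 0.0621 and 0.0611 (edgeR).

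For Helios the fitted value in aTreg cells was above 0. Ikzf2 had 1209 and 1010 CPM in WT and 1255 and 1302 CPM in Foxp1-deficient aTreg cells, a log2 difference of 0.21 (SE 0.077) that did not pass (adjusted p = 0.155, edgeR) and that was 0.054 in the first pair and 0.37 in the second. Ikzf1 had 398 and 534 CPM in WT and 364 and 379 CPM in Foxp1-deficient aTreg cells, and its difference of -0.32 (SE 0.10) did not pass either (adjusted p = 0.112, edgeR). For both genes the 2 WT libraries lay farther apart than the Foxp1-deficient ones, and both passed when the first WT aTreg library was left out, Ikzf2 at 0.35 (adjusted p = 0.0259, edgeR) and Ikzf1 at -0.51 (adjusted p = 0.00756, edgeR).

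Foxp3 in aTreg cells had 530 and 536 CPM in WT and 497 and 587 CPM in Foxp1-deficient cells, with the WT libraries lying between the Foxp1-deficient ones. The log2 difference was 0.017 (SE 0.084, 95% confidence interval -0.18 to 0.21, adjusted p = 0.930, edgeR). Ikzf4 likewise overlapped, with 251 and 171 CPM in WT and 197 and 202 CPM in Foxp1-deficient cells, a difference of -0.053 with a 95% confidence interval from -0.34 to 0.23. Ikzf5 had 3.29 and 2.44 CPM against 1.84 and 2.30 CPM, a difference of -0.43 (SE 0.35, adjusted p = 0.515, edgeR).

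**Figure D2:**
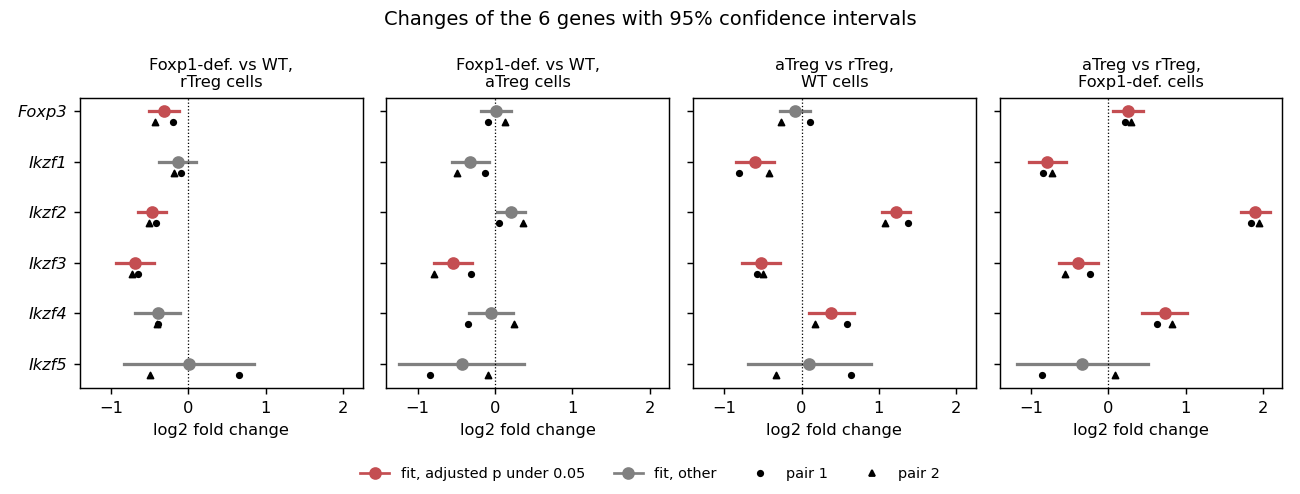
Fitted log2 fold changes (horizontal axis) of the 6 genes in the 4 comparisons, with 95% confidence intervals as bars, red for an adjusted p under 0.05 and grey otherwise, and the log2 differences of replicate pairs 1 and 2 as black circles and triangles. Ikzf3 lies to the left of 0 in all 4 comparisons, and Ikzf2 moves from -0.47 in rTreg cells to 0.21 in aTreg cells between genotypes and to 1.23 and 1.90 between subsets.

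An interaction term asked whether the effect of genotype differs between rTreg and aTreg cells. None of the 6 genes passed at an adjusted p under 0.05, against 48 of all genes tested (0.330%). At an unadjusted p under 0.05 there were 2 of the 6, Ikzf2 and Foxp3, and 12.8% of all genes. The difference for Ikzf2 was 0.68 (SE 0.11, 95% confidence interval 0.42 to 0.93), which is the distance from -0.47 in rTreg to 0.21 in aTreg cells, with an adjusted p of 0.0531 (edgeR) just above the threshold. It passed in 3 of the 17 alternatives, which were DESeq2 (adjusted p = 8.13e-05), edgeR with no filter on low counts (adjusted p = 1.21e-06) and edgeR without the first WT aTreg library (0.82, adjusted p = 0.00755). For Foxp3 the difference was 0.33 (SE 0.12, adjusted p = 0.289, edgeR), and for Ikzf3, which was lower in both subsets, 0.14 (SE 0.15, adjusted p = 0.765, edgeR).

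Between the subsets of WT cells, 2 of the 6 genes were higher in aTreg than in rTreg cells and 2 were lower. Helios and Eos rose, and Ikaros and Aiolos fell. Over all genes tested, 31.9% passed, 18.2% as higher and 13.6% as lower. Ikzf2 rose from 473 ± 9.47 to 1109 ± 140 CPM, a 2.34-fold increase with a log2 fold change of 1.23 (SE 0.078, adjusted p = 3.45e-05, edgeR), and it was the only one of the 6 to pass 2-fold, as 12.3% of all genes did (9.50% as higher and 2.83% as lower). Ikzf4 went from 159 ± 11.6 to 211 ± 56.6 CPM (log2 fold change 0.39, SE 0.12, adjusted p = 0.0466, edgeR), and lost its call in 11 of the 18 alternatives, at an adjusted p of 0.169 without the replicate block (edgeR). Without the first WT aTreg library, the highest of all, its log2 fold change was 0.14 (adjusted p = 0.348, edgeR), and without either WT rTreg or either Foxp1-deficient rTreg library the adjusted p lay between 0.0714 and 0.201 (edgeR).

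The members that fell from WT rTreg to WT aTreg cells were Ikzf1, from 704 ± 11.7 to 466 ± 96.1 CPM (log2 fold change -0.60, SE 0.10, adjusted p = 0.00359, edgeR), and Ikzf3, from 453 ± 13.5 to 313 ± 2.76 CPM (-0.53, SE 0.11, adjusted p = 0.00750, edgeR). Ikzf1 lost its call in 1 of the 18 alternatives and Ikzf3 in 4, among them the fit without the replicate block (adjusted p = 0.0502, edgeR) and the fits without the second WT rTreg library (-0.45, adjusted p = 0.0777, edgeR) and without the first WT aTreg library (-0.41, adjusted p = 0.0558, edgeR). Foxp3 did not separate the subsets of WT cells. Its difference was 0.11 in the first pair and -0.27 in the second, and the fit gave -0.081 with a 95% confidence interval from -0.27 to 0.11 (adjusted p = 0.506, edgeR).

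In Foxp1-deficient cells, 3 of the 6 genes were higher in aTreg than in rTreg cells and 2 were lower, where 40.1% of all genes passed, 21.9% as higher and 18.2% as lower. Ikzf2 rose from 342 ± 7.79 to 1279 ± 33.3 CPM, 3.74-fold, with a log2 fold change of 1.90 (SE 0.080, adjusted p = 4.44e-06, edgeR) and 1.85 and 1.95 in the pairs. It was again the only one past 2-fold, as 15.7% of all genes were, 11.3% as higher and 4.39% as lower. Ikzf4 rose from 121 ± 9.43 to 200 ± 3.60 CPM (0.73, SE 0.12, adjusted p = 0.00268, edgeR). These 2 calls, the Ikzf1 call in these cells and the Ikzf2 call in WT cells were kept in every one of the 18 alternatives. Ikzf1 fell from 640 ± 15.0 to 372 ± 10.8 CPM (-0.79, SE 0.10, adjusted p = 7.41e-04, edgeR). Ikzf3 fell from 282 ± 20.03 to 217 ± 49.3 CPM (-0.39, SE 0.11, adjusted p = 0.0228, edgeR), a call lost in 7 alternatives, at an adjusted p of 0.111 without the replicate block, and without the second Foxp1-deficient aTreg library the estimate was -0.19 (adjusted p = 0.130, edgeR). Without either Foxp1-deficient rTreg library the adjusted p was 0.119 and 0.121 (edgeR).

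Foxp3 was higher in Foxp1-deficient aTreg than in Foxp1-deficient rTreg cells, at 542 ± 63.8 against 455 ± 35.99 CPM. The log2 fold change was 0.25 (SE 0.084, 95% confidence interval 0.057 to 0.45, adjusted p = 0.0457, edgeR), and the pairs gave 0.21 and 0.29. The call was lost in 6 of the 18 alternatives, among them the fit without the replicate block (adjusted p = 0.264, edgeR) and the fits without any 1 of the 4 Foxp1-deficient libraries (adjusted p from 0.108 to 0.217, edgeR). The subset and genotype comparisons share libraries, so the low Foxp3 level of the Foxp1-deficient rTreg libraries enters both its genotype difference in rTreg cells and this one.

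**Figure D3:**
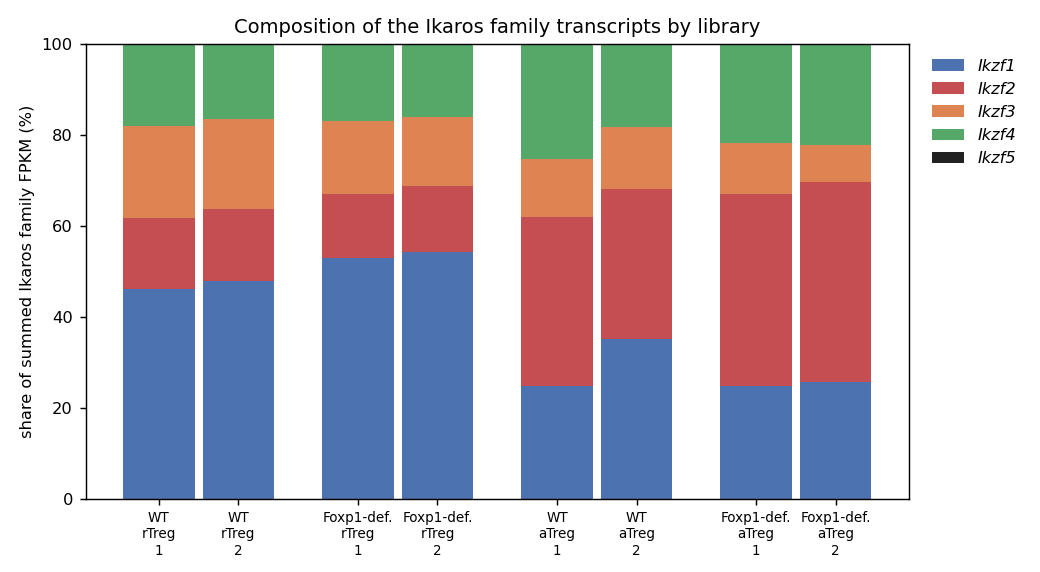
Share of each Ikaros family gene in the summed FPKM of the 5 genes (vertical axis, percent), 1 bar per library. Ikzf1 takes 46.2% to 54.3% in the 4 rTreg libraries and 24.7% to 35.1% in the 4 aTreg libraries, while Ikzf2 takes 14.1% to 16.0% and 33.0% to 43.9%; Ikzf5 is too small to be seen.

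The makeup of the family was compared on the per-length scale as shares and ratios within libraries, which need no scaling between them. Sums and levels in FPKM do depend on the scaling of each library to its depth. The 5 genes summed to 257 ± 7.89 FPKM in WT rTreg, 201 ± 11.3 in Foxp1-deficient rTreg, 278 ± 12.6 in WT aTreg and 257 ± 8.13 in Foxp1-deficient aTreg cells, so that the sum was lowest in both Foxp1-deficient rTreg libraries. Ikaros made up 47.0% ± 1.11 of it in WT and 53.6% ± 0.908 in Foxp1-deficient rTreg cells, while Helios made up 15.7% ± 0.425 and 14.3% ± 0.250. In aTreg cells Ikaros made up 29.9% ± 7.35 in WT and 25.2% ± 0.717 in Foxp1-deficient cells, and Helios 35.2% ± 3.02 and 43.1% ± 1.09. Aiolos took 19.96% ± 0.456 and 15.6% ± 0.480 in WT and Foxp1-deficient rTreg cells, and 13.2% ± 0.654 and 9.71% ± 2.21 in the aTreg groups. The libraries of WT and Foxp1-deficient cells did not overlap for Helios, Aiolos or Ikaros in rTreg cells, nor for Helios and Aiolos in aTreg cells. These shares were not tested, and with 2 libraries a group such a separation can arise without a difference between genotypes. A share also depends on the other members. Ikaros had the larger share in Foxp1-deficient rTreg cells while its own FPKM was lower there, at 108 ± 4.23 against 121 ± 0.855.

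The ratio of Ikzf2 to Ikzf1 FPKM sets Helios against Ikaros in the same library. It was 0.333 and 0.335 in WT rTreg cells and 0.266 and 0.266 in Foxp1-deficient rTreg cells, so the replicates lay close together and the genotypes were apart. In aTreg cells it was 1.51 and 0.941 in WT and 1.72 and 1.71 in Foxp1-deficient cells, and WT libraries spread more than those of any other group. Ikzf2 over Ikzf3 was 0.760 and 0.816 in WT rTreg, 0.886 and 0.948 in Foxp1-deficient rTreg, 2.93 and 2.42 in WT aTreg and 3.76 and 5.39 in Foxp1-deficient aTreg cells, higher in Foxp1-deficient than in WT libraries of either subset. These ratios were not tested, and shares and ratios use the lengths behind the deposited FPKM.

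Each member was also set against Foxp3 in the same library. Ikzf1 stood at 0.977 and 0.762 of the Foxp3 FPKM in WT rTreg, 1.05 and 0.905 in Foxp1-deficient rTreg, 0.518 and 0.688 in WT aTreg and 0.506 and 0.446 in Foxp1-deficient aTreg cells. For Ikzf2 the ratios were 0.326 and 0.255, then 0.278 and 0.241, then 0.783 and 0.648, and 0.867 and 0.762 in the same order of groups. Relative to Foxp3, then, Helios was higher and Ikaros lower in every aTreg than in every rTreg library, and for Ikzf2 the genotypes overlapped in both subsets while, within replicate pairs, the ratio was lower in both Foxp1-deficient rTreg libraries and higher in both Foxp1-deficient aTreg libraries. Ikzf4 stood at 0.379 and 0.261 of Foxp3 in WT rTreg, 0.331 and 0.265 in Foxp1-deficient rTreg, 0.527 and 0.355 in WT aTreg, and 0.442 and 0.384 in Foxp1-deficient aTreg cells, with the genotypes overlapping in both subsets. Ikzf3 stood at 0.429 and 0.313, then 0.314 and 0.254, then 0.268 and 0.268, and 0.231 and 0.141.

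**Figure D4:**
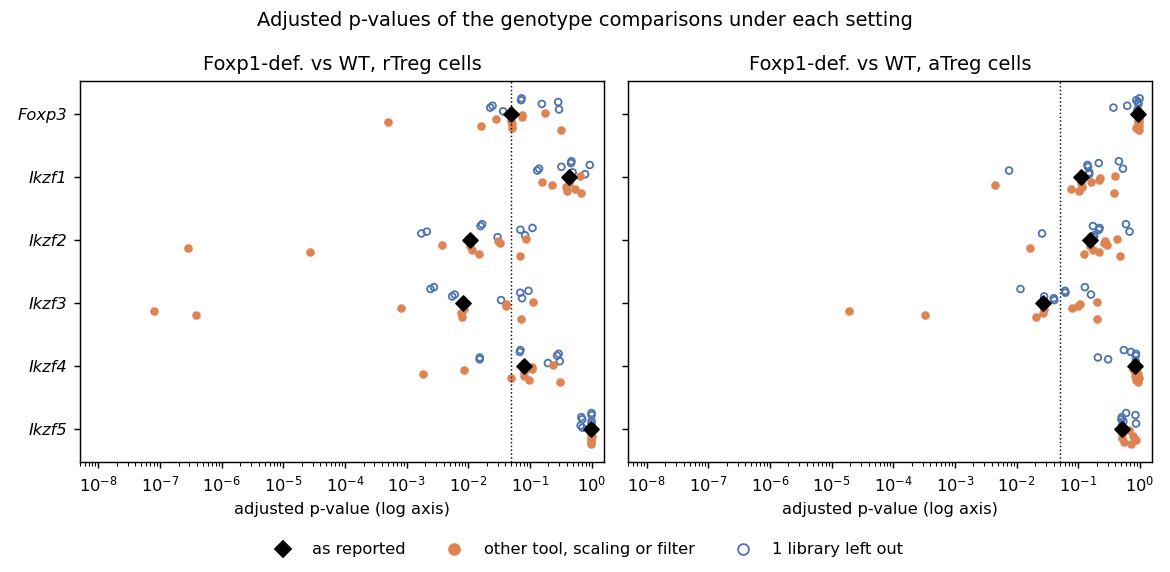
Adjusted p-values (horizontal log axis) of the genotype comparisons of the 6 genes in rTreg cells (left) and aTreg cells (right), as reported (black diamonds), with another tool, scaling or filter (filled circles), and with 1 library left out (open circles); the dotted line marks 0.05. Foxp3 in rTreg cells straddles the line from 4.97e-04 to 0.324, and its reported value of 0.0496 lies just under it.

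Factors that act on the Foxp3 gene were taken as a fixed list of 23 genes, all tested. In Foxp1-deficient rTreg cells 3 were higher and 3 lower, and in aTreg cells 4 were higher and 3 lower, with medians of -0.059 and -0.041 (log2) against 0.0029 and 0.0018 over all genes, of which 12.0% passed in rTreg and 6.88% in aTreg cells. Uhrf1, which maintains DNA methylation together with Dnmt1, rose in both subsets, with log2 fold changes of 1.78 in rTreg (SE 0.14, adjusted p = 6.98e-04, edgeR) and 1.16 in aTreg cells (SE 0.12, adjusted p = 0.00286, and 0.0915 without the replicate block, edgeR). Bach2, a repressor of effector genes, fell in aTreg cells from 87.3 ± 15.5 to 36.8 ± 5.85 CPM (log2 fold change -1.25, SE 0.14, adjusted p = 0.00347, edgeR). The aTreg calls of Uhrf1 and Bach2 were each lost in 2 of the 18 alternatives. The others in rTreg cells were Stat5b (0.37), which transmits interleukin-2 signals, and Runx1 (0.27), which rose, and Smad3 (-0.24), Foxo1 (-0.31) and the DNA demethylase Tet3 (-0.40), which fell. In aTreg cells Stat5b (0.22), Gata3 (0.38) and Dnmt1 (0.31) rose and Foxo1 (-0.29) and Tet3 (-0.32) fell; apart from Uhrf1 and Bach2 these genes were named after their values were seen. Without the replicate block all 10 of these calls were lost, with adjusted p from 0.0544 to 0.526 (edgeR). In rTreg cells Smad3 lost its call in 10 of the 18 alternatives, Runx1 in 8, Foxo1 in 6, and Stat5b and Tet3 in 4 each. In aTreg cells Stat5b lost its call in 14 of the 18 alternatives, Dnmt1 and Foxo1 in 13, Tet3 in 11 and Gata3 in 7. Between subsets, 31.9% of all genes passed in WT and 40.1% in Foxp1-deficient cells, and of the list 9 rose and 6 fell in WT and 9 rose and 7 fell in Foxp1-deficient cells. Nfatc1 rose by 1.46 in WT and 1.53 in Foxp1-deficient aTreg cells, Gata3 by 1.00 and 1.48, and Bach2 fell by 1.53 and 2.51 (log2).

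A list of 18 partners of the Foxp3 protein includes Foxp1 itself, and 2 of the 18 passed between genotypes in rTreg cells and 4 in aTreg cells, where 12.0% and 6.88% of all genes did. In rTreg cells Runx1 was higher and the acetyltransferase Ep300 (-0.24) lower, and in aTreg cells Gata3 and Rora were higher and Foxp1 and the deacetylase Hdac7 (-0.41) lower, where all of these except Rora and Foxp1 were named after their values were seen. Ep300 lost its call in 8 of the 18 alternatives and Hdac7 in 9. The nuclear receptor Rora rose in aTreg cells from 151 ± 16.1 to 245 ± 3.06 CPM (log2 fold change 0.71, SE 0.13, adjusted p = 0.0196, and 0.235 without the replicate block, edgeR). Its call was lost in 7 of the 18 alternatives. Between subsets 9 rose and 3 fell in WT cells and 7 rose and 3 fell in Foxp1-deficient cells, with Rora (2.65 and 3.10) and Hif1a (1.29 and 1.21) among those that rose in both, as log2 fold changes.

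The complexes through which Ikaros factors repress were covered by 17 genes of NuRD, Sin3 and CtBP, all tested. In rTreg cells Mta3, a NuRD subunit, rose from 82.9 ± 0.906 to 129 ± 0.532 CPM (log2 fold change 0.64, SE 0.068, adjusted p = 0.00212, edgeR), and the NuRD helicase Chd3 was lower (-0.18). In aTreg cells Mbd2 was higher (0.39) and Chd3 (-0.23) and Hdac2 (-0.30) were lower; these genes apart from Mta3 were named after their values were seen. The calls were lost in 14 of the 18 alternatives for Hdac2 and in 9 each for Mbd2 and Chd3 in aTreg cells, and in 8 for Chd3 in rTreg cells. From rTreg to aTreg cells 1 rose and 4 fell in WT and 1 rose and 5 fell in Foxp1-deficient cells, close to the shares of all genes that passed (31.9% and 40.1%), with Chd3 (-0.23 and -0.28) and Chd4 (-0.20 and -0.23) lower in both. Chd4 lost its call between subsets in 7 of the 18 alternatives in WT and in 3 in Foxp1-deficient cells, and Chd3 in 3 and 1. The list median stayed between -0.086 and 0.039 in all 4 comparisons. Crbn, the substrate receptor of the ubiquitin ligase through which thalidomide analogues degrade Ikaros and Aiolos, was the only 1 of 5 ligase genes to pass anywhere. Its level in rTreg cells was lower without Foxp1 (-0.33, SE 0.081, adjusted p = 0.0406, and 0.136 without the replicate block, edgeR, a call kept in 6 of 18 alternatives) and higher in aTreg than in rTreg cells of WT (0.34, adjusted p = 0.0133, edgeR) and Foxp1-deficient mice (0.54, adjusted p = 0.00140, edgeR).

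Of 15 genes that Foxp3 activates in Treg cells, 5 fell and none rose in Foxp1-deficient rTreg cells, with a list median of -0.38 (log2) against 0.0029 over all genes, of which 5.45% fell. This list, like the others, was chosen with earlier results of these data known, so its distance from all genes is a description and not a test. Ctla4, the inhibitory receptor, went from 275 ± 110 to 154 ± 80.9 CPM (log2 fold change -0.89, SE 0.077, adjusted p = 8.87e-04, edgeR). Its replicates lay far apart in every group, and without the replicate block the adjusted p was 0.506 (edgeR). Gpr83, a receptor typical of Treg cells, fell from 323 ± 70.0 to 123 ± 41.5 CPM (-1.41, SE 0.18, adjusted p = 0.00395, edgeR), and Entpd1, the ectoenzyme CD39, from 25.7 ± 2.09 to 10.2 ± 0.468 CPM (-1.32, SE 0.18, adjusted p = 0.00485, edgeR). The other 2 were the folate receptor Izumo1r (-0.43) and Il2rb (-0.49), a chain of the interleukin-2 receptor, named after their values were seen, with calls lost in 6 and 7 of the 18 alternatives. The rTreg calls of Gpr83 and Entpd1 were lost in 2 alternatives each and that of Ctla4 in 1. In aTreg cells 2 rose and 3 fell, with a median of 0.016. Gpr83 fell there from 137 ± 14.7 to 31.3 ± 4.66 CPM (-2.16, SE 0.19, adjusted p = 0.00177, edgeR), and Nrp1 rose from 350 ± 89.4 to 552 ± 42.0 CPM (0.68, SE 0.14, adjusted p = 0.0316, and 0.191 without the replicate block, edgeR), while Ctla4 (-0.51) and Il2ra (-0.27) fell and Itgae (0.54) rose, the last 3 named after their values were seen. Il2ra lost its call in 11 of the 18 alternatives, Itgae in 6 and Ctla4 in 5, and without the replicate block the adjusted p was 0.526, 0.465 and 0.790 (edgeR). Nrp1 lost its aTreg call in 9 of the 18 alternatives and Gpr83 in 1. None of the 15 passed the test of a difference between the subsets in the genotype effect.

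The list was also read between subsets. From rTreg to aTreg cells 10 of the 15 rose and 2 fell in WT, and 11 rose and 2 fell in Foxp1-deficient cells, with medians of 1.12 and 1.21 against -0.0046 and -0.018 over all genes, of which 18.2% and 21.9% rose. Itgae, the αE integrin chain CD103, rose from 8.41 ± 1.21 to 323 ± 66.7 CPM in WT cells and from 6.18 ± 1.98 to 477 ± 158 CPM in Foxp1-deficient cells. Ctla4 rose by 1.13 and 1.51 (log2), without the block at adjusted p-values of 0.202 and 0.0948 (edgeR). Foxp3 itself had log2 differences of -0.081 and 0.25 in the same comparisons. Of 8 genes that Foxp3 represses, 7 could be tested, and 0 passed between genotypes in either subset (edgeR), with 1 and 0 of them at an unadjusted p under 0.05 in rTreg and aTreg cells, where 28.5% and 23.3% of all genes were. Between subsets 4 rose and 2 fell in each genotype, with log2 fold changes in WT and Foxp1-deficient cells of -2.26 and -2.52 for Satb1 and of 1.10 and 1.11 for the phosphatase gene Ptpn22. Ifng rose by 5.35 and 7.25, from at most 5 counts in a WT rTreg library and at most 1 in a Foxp1-deficient rTreg library, so the size of its rise is uncertain.

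The genes whose pattern over the 8 libraries was most like that of each member were ranked among 8964 genes with a mean of at least 10 CPM, by Pearson's r of log2 CPM. These correlations are descriptions over libraries that share groups and replicate numbers. Closest to Ikzf2 were Itgb8 (r = 0.998), Lamc1 (0.998) and Sdcbp2 (0.997), and closest to Ikzf1 were Galnt6 (0.998), B430306N03Rik (0.991) and Tmem87b (0.990). Ikzf3 was followed by Ubp1 (0.985), Carns1 (0.976) and Plekha7 (0.974), and Ikzf4 by Fem1c (0.978), Mboat7 (0.976) and Sec22a (0.976). For Foxp3 the named genes reached lower values, with Atxn7 at 0.929 and Cog6 at 0.927, and for Ikzf5 lower still, with Clpx at 0.883, Usp40 at 0.864 and Rab10os at 0.844. Among the members, Ikzf2 ran with Ikzf4 (r = 0.89) and against Ikzf1 (r = -0.90), Ikzf1 ran with Ikzf3 (r = 0.72), and Foxp3 lay between -0.13 and 0.39 with the 5 others.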

How the data were processed

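RNA from sorted Treg cells was made into libraries with the NEBNext Ultra kit and sequenced on a HiSeq X, with 2 libraries in each of 4 groups. The authors deposited raw read counts per gene beside FPKM values for the same 8 libraries. By the submitters' processing notes, reads were aligned to mm10 with HISAT2 2.0.5 and counted with HTSeq. The study's methods add adapter trimming with trim_galore and removal of duplicates with Picard, which limits the counts of the most abundant genes, and the strand setting is not given in the sources used here. FPKM, as deposited, divides these counts by depth and by a gene length, and was used for levels between genes and as an alternative.

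Groups came from the sample titles. Counts were scaled by TMM and filtered with filterByExpr (minimum count 10), and all 8 libraries were fitted with edgeR 4.0.16 (R 4.3.3) by the quasi-likelihood test, with the replicate number as a block and Benjamini-Hochberg adjustment over 14540 genes. A gene passed at an adjusted p under 0.05, with further thresholds of 1.5-fold between genotypes and 2-fold between subsets after the study's methods. The block was kept because the study's methods pair the samples, the labels carry replicate numbers 1 and 2, and deviations of same-numbered libraries correlated at r of 0.355 to 0.597 over genes. Library totals of 6373170 to 15268623 put the floor of 3 counts at 0.196 to 0.471 CPM, which covers counting error only.

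The 6 genes were named in every comparison. From each fixed list, genes with an adjusted p under 0.05 and 1.5-fold between genotypes were named, then up to 4 genes with the smallest adjusted p between subsets, then the 3 genes with a pattern most like each member's by Pearson's r of log2 CPM (prior count 2). For Foxp3, 1 of these 3 genes is not reported here. The 6 genes and all lists were chosen with earlier results of these data known. Alternatives were no replicate block, limma-voom and limma 3.58.1 on log2(FPKM + 1) and log2(FPKM + 0.1) with a mean FPKM of at least 1 or no filter, DESeq2 1.42.0, no filter on low counts, a filter of 1 CPM in at least 2 libraries, size factors by median of ratios, the 4 libraries of a comparison alone, and leaving out each library, 18 in all. Of the gene identifiers, 27505 of 27594 were found in GENCODE M21.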

Additional observations from a re-analysis of the deposited data

How the results depend on the processing

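Each comparison between groups was repeated under 18 alternatives. Without the replicate block, the number of all genes that passed went from 1748 to 300 between genotypes in rTreg cells, from 1001 to 81 in aTreg cells, from 4631 to 2373 between subsets in WT cells, from 5828 to 3482 in Foxp1-deficient cells, and from 48 to 0 for the difference of the genotype effects; of the 6 members, 0, 0, 2, 3 and 0 then passed, in place of 3, 1, 4, 5 and 0. With no filter on low counts, 1844 genes and 3 members passed between genotypes in aTreg cells, and 573 genes and 2 members for the difference of the effects, where DESeq2 gave 279 genes and 1 member. With the 4 aTreg libraries alone, 421 genes and 0 members passed. By limma on log2(FPKM + 1), log2(FPKM + 0.1) and log2(FPKM + 1) with no filter, 814, 844 and 183 genes passed between genotypes in rTreg cells (0 members in the last), 165, 123 and 21 in aTreg cells (0 members in each), and 2, 2 and 1 for the difference of the effects; with no filter, 2460 genes and 1 member passed between subsets in WT cells, and 3 members in Foxp1-deficient cells.

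With 1 library left out in turn, the genes that passed numbered 245 to 1772 and the members 0 to 4 between genotypes in rTreg cells, 126 to 768 and 0 to 3 in aTreg cells, 2633 to 4445 and 2 to 4 between subsets in WT cells, 3597 to 5849 and 3 to 5 in Foxp1-deficient cells, and 1 to 167 and 0 to 1 for the difference of the effects. A lone library left in a group is then assumed to vary like the other groups. Log2 values that changed sign were all of results that had not passed. They were Ikzf5 between genotypes in rTreg cells with limma-voom (-0.026), no filter on low counts (-0.012), size factors by median of ratios (-0.0062) and 1 library left out (-0.34 to 0.44), and Foxp3 between genotypes in aTreg cells with limma on FPKM (-0.0074, -0.0075 and -0.0074) and 1 library left out (-0.11 to 0.15). Leaving out 1 library also turned Ikzf4 between genotypes in aTreg cells (-0.28 to 0.19), Foxp3 and Ikzf5 between subsets in WT cells (-0.21 to 0.057 and -0.23 to 0.55), Ikzf5 between subsets in Foxp1-deficient cells (-0.75 to 0.012), and the differences of the effects for Ikzf1 (-0.37 to 0.029) and Ikzf3 (-0.062 to 0.34). The causes were not tested. Of 128 results of list genes that passed, retested with alternatives chosen after seeing the data, 63 kept their call throughout, 65 lost it in at least 1 alternative, 55 of them without the replicate block, and 0 changed sign. Depth limits only Ikzf5, with at most 39 counts in a library.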
